A study of Mus musculus with 9 samples.

Results

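The miR-183, miR-96 and miR-182 cluster is a set of 3 microRNA (miRNA) genes that lie close together on mouse chromosome 6. Its members were taken by name from the deposited table of small RNA read counts as the 5p arms mmu-miR-183-5p, mmu-miR-96-5p and mmu-miR-182-5p. They are 3 of the 1448 mature miRNAs listed, and all 3 are among the 628 miRNAs that reached 10 reads in 3 or more libraries and were tested. The libraries came from the hippocampus of 9 adult male C57BL/6J mice, 3 in each of 3 groups. The saline group received saline. The LPS group received lipopolysaccharide (LPS), an endotoxin of bacteria that sets off inflammation, at 1 mg/kg. The LPS + GAS group received the same dose of LPS and gastrodin (GAS), a phenolic glucoside from an orchid, at 100 mg/kg. The labels place GAS 1 h after LPS. The study's methods also describe the injections as concurrent, and its abstract places GAS before LPS. The sources give different strengths for the saline. The injections were intraperitoneal, and the hour at which these hippocampi were taken is not given in the text of the sources. Each library is taken as 1 mouse, and p-values measure the spread between these libraries.

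MiRNAs act by pairing with messenger RNAs, mostly through the seed, bases 2 to 8 counted from the 5′ end, so that miRNAs with the same seed share many potential targets. The cluster is best known from sense organs. It is abundant in photoreceptors, in the hair cells of the inner ear and in sensory ganglia, and changes in the seed of miR-96 cause hearing loss in people and mice. In the immune system, miR-182 is known to be induced in activated helper T cells, where it targets Foxo1.

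The mature sequences as deposited are shown because the members' seeds are nearly the same. The seed is in capitals.
miR-183-5p: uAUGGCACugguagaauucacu
miR-96-5p: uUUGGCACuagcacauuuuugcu
miR-182-5p: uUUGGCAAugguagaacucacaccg
They are 22, 23 and 25 bases long, and each was the same as the RefSeq entry. Within the seed, with positions counted from the 5′ end, miR-96-5p and miR-182-5p differed by the single substitution C8A. MiR-96-5p and miR-183-5p differed by U2A, and miR-182-5p and miR-183-5p by U2A and A8C. MiR-96-5p and miR-182-5p therefore shared bases 2 to 7, while miR-183-5p shared its full seed with neither. The other listed miRNA with the full seed of miR-96-5p, miR-1271-5p (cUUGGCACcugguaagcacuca), had 0 reads in all 9 libraries. No other row of the table held the same mature sequence as a member.

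All 3 hairpins lie on the minus strand of chromosome 6 in GRCm38.p6, the build named in the submitters' processing notes. In the order of transcription they are Mir183 at chr6:30169668-30169737, Mir96 at chr6:30169446-30169551 and Mir182 at chr6:30165918-30165992. Together they span 3820 bp, with 116 bp between Mir183 and Mir96 and 3453 bp between Mir96 and Mir182. RefSeq places all 3 inside 1 gene, the long non-coding RNA Mirc35hg (chr6:30158640-30174125, minus strand), whereas GENCODE M21 has no gene over the span but the 3 miRNA genes. The nearest protein-coding neighbours in RefSeq are Nrf1, which ends 12459 bp away, and Ube2h, 41551 bp away on the other side. The deposited hairpins, 70, 106 and 75 bases long, are shown with the mature 5p arm in capitals, since nearly all reads of each hairpin came from that arm.
Mir183: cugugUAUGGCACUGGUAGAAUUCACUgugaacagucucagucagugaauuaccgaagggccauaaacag
Mir96: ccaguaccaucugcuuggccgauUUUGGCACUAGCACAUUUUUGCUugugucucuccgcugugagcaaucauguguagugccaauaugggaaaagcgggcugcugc
Mir182: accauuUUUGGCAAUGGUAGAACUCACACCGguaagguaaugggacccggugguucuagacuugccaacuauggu

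**Figure D1:**
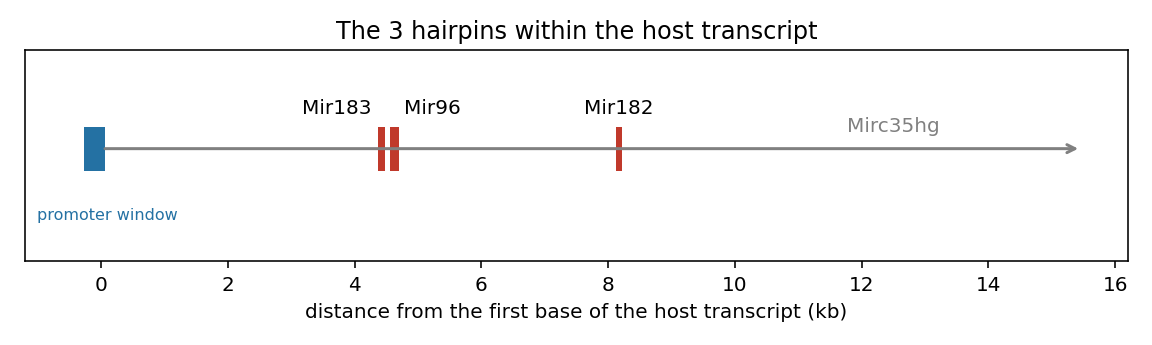
Map of the cluster, with the distance in kb from the RefSeq start of the host RNA Mirc35hg, in the direction of transcription, on the horizontal axis, and the promoter window in blue. Mir183 starts at 4.388 kb and Mir96 at 4.574 kb, next to each other, and Mir182 lies apart at 8.133 kb.

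Of the opposite arms, miR-183-3p had 0 reads in all libraries beside 8658 reads of miR-183-5p. This allows a share of up to 0.0426%, the upper limit of the 95% exact binomial interval. MiR-96-3p had 3 reads, 0.163% of the reads of its hairpin (95% exact binomial interval 0.0336 to 0.475%). MiR-182-3p had 7 reads in 5 libraries, 0.187% (0.0752 to 0.385%). These intervals and limits cover counting error only, and no 3p arm passed the filter on low counts.

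Because the members moved together across libraries, the start of the host RNA is shown as well. The window chr6:30174076-30174375 runs from 250 bases before to 50 bases after the RefSeq start, and lies 4338 bp upstream of the Mir183 hairpin. Capitals mark the matches, on either strand, to the E-box CACCTG, which the ZEB repressors are known to bind, and to the GC box GGGCGG.
Mirc35hg promoter, minus strand: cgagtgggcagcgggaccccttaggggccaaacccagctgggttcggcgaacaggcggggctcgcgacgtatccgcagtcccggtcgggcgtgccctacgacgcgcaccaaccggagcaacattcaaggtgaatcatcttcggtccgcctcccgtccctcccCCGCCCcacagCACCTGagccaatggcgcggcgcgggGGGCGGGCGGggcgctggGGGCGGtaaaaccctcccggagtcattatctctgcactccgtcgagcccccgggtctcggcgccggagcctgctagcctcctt
The window held 1 match to the E-box and 4 to the GC box, of which 2 overlap each other. The E-box letters were present in 20.2% and the GC box letters in 35.7% of 32851 RefSeq promoter windows of the same length. The GC content was 70.3%, against a median of 52.7% over all windows. The motifs were chosen after the counts had been seen, and a match is a description of the sequence, not of binding.

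The libraries held 10119758 to 11457656 reads on miRNAs, with TMM factors of 0.914 to 1.19, and levels are given as edgeR's CPM, the reads of a miRNA scaled to the normalized library total. Of a list of 8 neuronal and hippocampal miRNAs, all were tested, and they summed to 106932 to 149997 CPM in each library. Libraries of 1 group differed by more than counting noise in every pair (chi-square over degrees of freedom from 170.3 to 426 over all miRNAs). The 3 libraries labelled replicate 2 stood apart from the rest in the members. In each group the replicate 2 library also had the lowest total of reads. In replicates 1, 2 and 3 the totals were 11457656, 10412119 and 10559954 for saline. They were 10351236, 10119758 and 10221277 for LPS, and 10707876, 10237421 and 10512667 for LPS + GAS. Whether depth had a part in the members' levels was not tested. Results that rest on these libraries are given with and without them.

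MiR-183-5p was the most abundant member by reads. It ranked 200 of 628 by mean CPM, with 0.00915% of all miRNA reads. In the saline group its level was 80.3, 108 and 65.6 CPM in replicates 1, 2 and 3 (841, 1221 and 651 reads). In the LPS group it was 47.6, 155 and 63.8 CPM (478, 1871 and 634 reads). In the LPS + GAS group it was 63.2, 190.0 and 39.2 CPM (677, 1878 and 407 reads). The 3 replicate 2 libraries were higher than the other 6, and the ranges of the groups overlapped. The group means were 84.6 ± 21.5 CPM in saline, 88.9 ± 58.2 in LPS and 97.5 ± 81.0 in LPS + GAS (SD, n = 3 each).

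MiR-182-5p, the member farthest downstream, ranked 262 of 628. Its level was 28.5, 52.9 and 24.6 CPM in the saline libraries (298, 598 and 244 reads). The LPS libraries had 19.0, 70.1 and 24.4 CPM (191, 844 and 243 reads). The LPS + GAS libraries had 35.1, 73.3 and 21.1 CPM (376, 725 and 219 reads). Replicate 2 was again the highest in each group. The means were 35.3 ± 15.3, 37.9 ± 28.1 and 43.2 ± 27.04 CPM (SD, n = 3 each).

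MiR-96-5p, whose seed is the one tied to hearing loss, had the fewest reads and ranked 328 of 628. Its level was 13.5, 34.2 and 12.8 CPM in the saline group (141, 387 and 127 reads). In the LPS group it was 8.26, 32.0 and 17.5 CPM (83, 385 and 174 reads). In the LPS + GAS group it was 13.6, 31.5 and 8.38 CPM (146, 311 and 87 reads). The replicate 2 libraries of the 3 groups lay close to one another, from 31.5 to 34.2 CPM, and above the other 6, which ranged from 8.26 to 17.5 CPM. The means were 20.2 ± 12.2, 19.2 ± 12.0 and 17.8 ± 12.1 CPM (SD, n = 3 each).

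**Figure D2:**
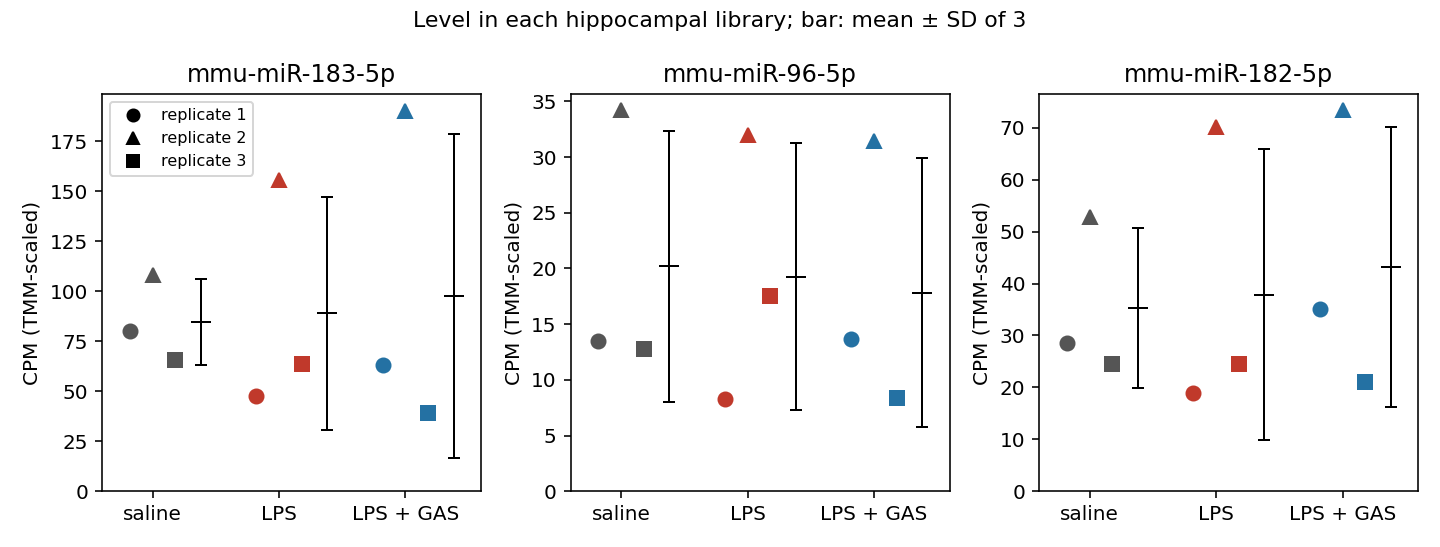
CPM of miR-183-5p, miR-96-5p and miR-182-5p in each of the 9 libraries by group, on linear axes from 0, with each point 1 library, its shape the replicate number, and the bar beside it the mean ± SD of the group. In all 3 groups the replicate 2 library (triangle) is the highest point for every member, and the groups overlap.

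The order miR-183-5p, miR-182-5p, miR-96-5p held in all 9 libraries on the scale of reads. The members differ by at most 3 bases in length, and a small RNA read covers the whole molecule, but the efficiency of cloning each sequence is unknown, so this is an order of reads. Replicate 2 exceeded the mean of the other 2 libraries of its group by 1.48-fold in saline, 2.79-fold in LPS and 3.71-fold in LPS + GAS for miR-183-5p. For miR-96-5p the folds were 2.61, 2.48 and 2.86, and for miR-182-5p 1.99, 3.23 and 2.61, in the same order of groups. Over all libraries, the highest level was 4.85-fold the lowest for miR-183-5p, 4.14-fold for miR-96-5p and 3.86-fold for miR-182-5p. The spread between libraries of a group, as an SD on the log2 scale, was 0.86 for miR-183-5p, 0.87 for miR-96-5p and 0.83 for miR-182-5p, against a median of 0.28 over the 628 miRNAs. Only 3.34 to 3.98% of the tested miRNAs had a larger spread. The largest counting error of any library was 0.072, 0.16 and 0.10 on the same scale for miR-183-5p, miR-96-5p and miR-182-5p. In bulk tissue, fewer cells of a type and less RNA per cell cannot be told apart.

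The comparison of the LPS group with the saline group asked whether endotoxin changed the members' levels. None of the 3 passed the test. The log2 fold change was 0.07 ± 0.59 for miR-183-5p (SE, 95% interval -1.25 to 1.39), -0.07 ± 0.61 for miR-96-5p (-1.44 to 1.30) and 0.10 ± 0.58 for miR-182-5p (-1.19 to 1.39). The adjusted p was 0.992 for each (edgeR quasi-likelihood test, Benjamini-Hochberg over 628 miRNAs). The fit called 0 of 628 miRNAs (0%), where a call needs an adjusted p no higher than 0.05 and a change of 1 or more on the log2 scale in either direction. An unadjusted p under 0.05 was reached by 15 miRNAs and 0 members, and DESeq2's Wald test called 1 miRNA and limma-voom 0, no member among them. The intervals of the members hold changes past 2-fold in both directions, so these libraries do not show that the levels were alike. Without LPS replicate 2 the fold changes were -0.57, -0.62 and -0.67 for miR-183-5p, miR-96-5p and miR-182-5p. Without saline replicate 2 they were 0.35, 0.62 and 0.58.

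In LPS + GAS against LPS, the comparison for the addition of GAS, the log2 fold change was 0.13 ± 0.59 for miR-183-5p (-1.19 to 1.45), -0.11 ± 0.61 for miR-96-5p (-1.49 to 1.26) and 0.19 ± 0.58 for miR-182-5p (-1.10 to 1.48). The adjusted p by edgeR with Benjamini-Hochberg adjustment was 0.996 for each. Again 0 of 628 miRNAs were called by edgeR (0%), 23 had an unadjusted p under 0.05, none of them a member, and DESeq2 and limma-voom both called 0. Leaving out LPS + GAS replicate 2 gave -0.80, -0.81 and -0.43 for miR-183-5p, miR-96-5p and miR-182-5p. Leaving out LPS replicate 2 gave 0.84, 0.50 and 1.02. Between these 2 settings the sign differed in all 3 members. Other libraries moved it as well. Without LPS replicate 1, miR-183-5p was -0.17 and miR-182-5p -0.13, and without LPS + GAS replicate 3, miR-96-5p was 0.24.

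In LPS + GAS against saline, the log2 fold change was 0.20 ± 0.59 for miR-183-5p (-1.12 to 1.53), -0.18 ± 0.61 for miR-96-5p (-1.55 to 1.19) and 0.29 ± 0.58 for miR-182-5p (-1.0 to 1.58), each with an adjusted p of 0.998 by edgeR with Benjamini-Hochberg adjustment. This fit called 1 of 628 miRNAs (0.159%), which was not a member, and 21 miRNAs and 0 members had an unadjusted p under 0.05. DESeq2 and limma-voom each called 1. Without LPS + GAS replicate 2 the values were -0.72, -0.87 and -0.33 for miR-183-5p, miR-96-5p and miR-182-5p. Without saline replicate 2 they were 0.49, 0.51 and 0.77. This comparison and each of the others share a group of libraries, so the values are given side by side only.

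The members' standard errors were above those of most miRNAs, at the 92.5 to 94.9 percentile of the 628, whose median was 0.28. The ranges of the groups overlapped for every member in every comparison. Over all 628 miRNAs, the share without overlap was 3.82% between LPS and saline. It was 8.6% between LPS + GAS and LPS, and 7.32% between LPS + GAS and saline. At shares this low, 0 of 3 members does not set the members apart from the other miRNAs. Exact two-sided permutation tests on the CPM gave p from 0.7 to 1.0 for the 9 combinations of member and comparison, each adjusted to 1.0. With 3 libraries in each group such a test cannot give a p below 0.1. With replicates 1 and 3 alone, an alternative added after the data had been seen, 0 members were called and the adjusted p by edgeR lay between 0.991 and 0.999. The standard errors were then 0.31 to 0.43. The fold changes in LPS vs saline were then -0.34 for miR-183-5p, 0.03 for miR-96-5p and -0.24 for miR-182-5p. In LPS + GAS vs LPS they were -0.14, -0.25 and 0.35, and in LPS + GAS vs saline -0.48, -0.22 and 0.12, in the same order.

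**Figure D3:**
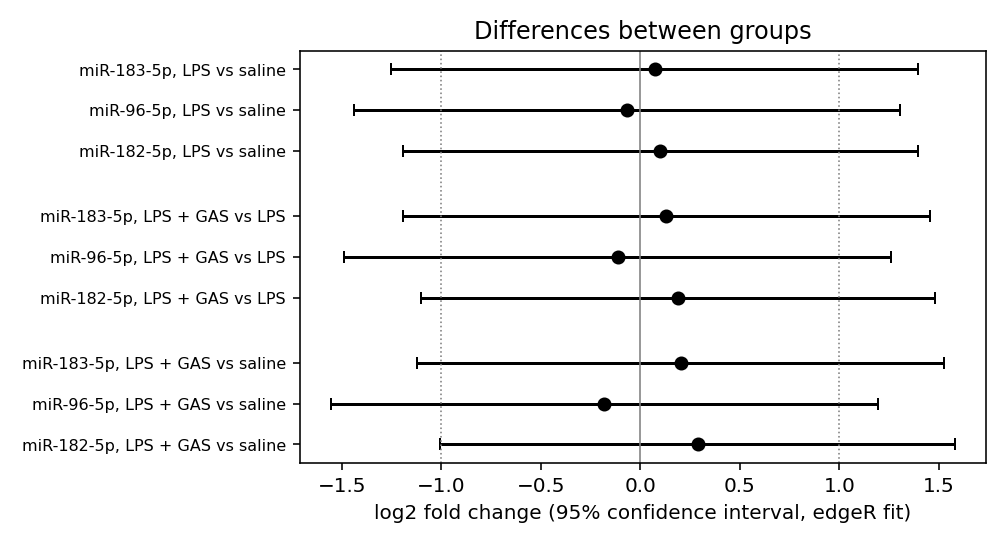
Fitted log2 fold changes of the 3 members in the 3 comparisons, with 95% intervals, for all 9 libraries, with dotted lines at -1 and 1. Every interval spans 0, and all lie between -1.55 and 1.58.

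The proportions of the members varied less than their levels. Of the reads of the 3 members together, miR-183-5p took 55.3 to 65.7% in the 9 libraries (median 60.4%), miR-182-5p 23.1 to 31.4% (25.4%) and miR-96-5p 10.7 to 17.5% (12.2%). The highest share of miR-96-5p, 17.5% in saline replicate 2 (95% exact binomial interval 16.0 to 19.2%), was beyond the counting error of the lowest, 10.7% in LPS + GAS replicate 2 (9.57 to 11.9%). These 2 libraries had nearly the same level of miR-96-5p, and the level of miR-183-5p was 108 CPM in the former and 190.0 CPM in the latter.

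The ratio of miR-96-5p to miR-182-5p, the pair that shares bases 2 to 7, ranged from 0.473 to 0.647 under saline, from 0.435 to 0.716 under LPS and from 0.388 to 0.429 under LPS + GAS. Every LPS + GAS library was thus below every library of the other 2 groups. On the log2 scale the means were -0.88 ± 0.23, -0.94 ± 0.40 and -1.31 ± 0.075 (SD, n = 3 each). LPS + GAS was lower by -0.37 than LPS and by -0.42 than saline, with an exact permutation p of 0.1 in both, the smallest this design can give, adjusted to 0.45 over 9 tests of ratios. The difference did not pass the test. It kept its sign with each library left out, but LPS replicate 3 weighed on it, with -0.14 against LPS when that library was left out. With replicates 1 and 3 alone it was -0.51 against LPS and -0.34 against saline.

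The ratio of miR-183-5p to miR-182-5p, the first and the last hairpin of the cluster, lay between 1.80 and 2.82 over all libraries. Its log2 means were 1.31 ± 0.25 in saline, 1.29 ± 0.12 in LPS and 1.04 ± 0.29 in LPS + GAS (SD, n = 3 each). LPS + GAS was lower by -0.25 than LPS and by -0.28 than saline, and did not pass the test, with exact permutation p of 0.3 and 0.2 (adjusted to 0.675 and 0.6 over the 9 tests). The overlap rested on LPS + GAS replicate 2, whose ratio was 2.59, while the other 2 libraries of that group lay below all 6 libraries of the other groups. Without LPS + GAS replicate 2 the differences were -0.41 and -0.44, and without saline replicate 2 the difference from saline was -0.42. Other libraries left out made the differences smaller. Without LPS + GAS replicate 1 they were -0.15 and -0.18, and without saline replicate 1 the difference from saline was -0.18. With replicates 1 and 3 alone the differences were -0.48 against LPS and -0.59 against saline. The ratio of miR-183-5p to miR-96-5p, whose hairpins are neighbours, ranged from 3.16 to 6.04, and its log2 means of 2.20 ± 0.48, 2.22 ± 0.33 and 2.34 ± 0.22 gave exact permutation p of 0.6 or more in every comparison (n = 3 each). Ratios within a library do not depend on how libraries were scaled.

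**Figure D4:**
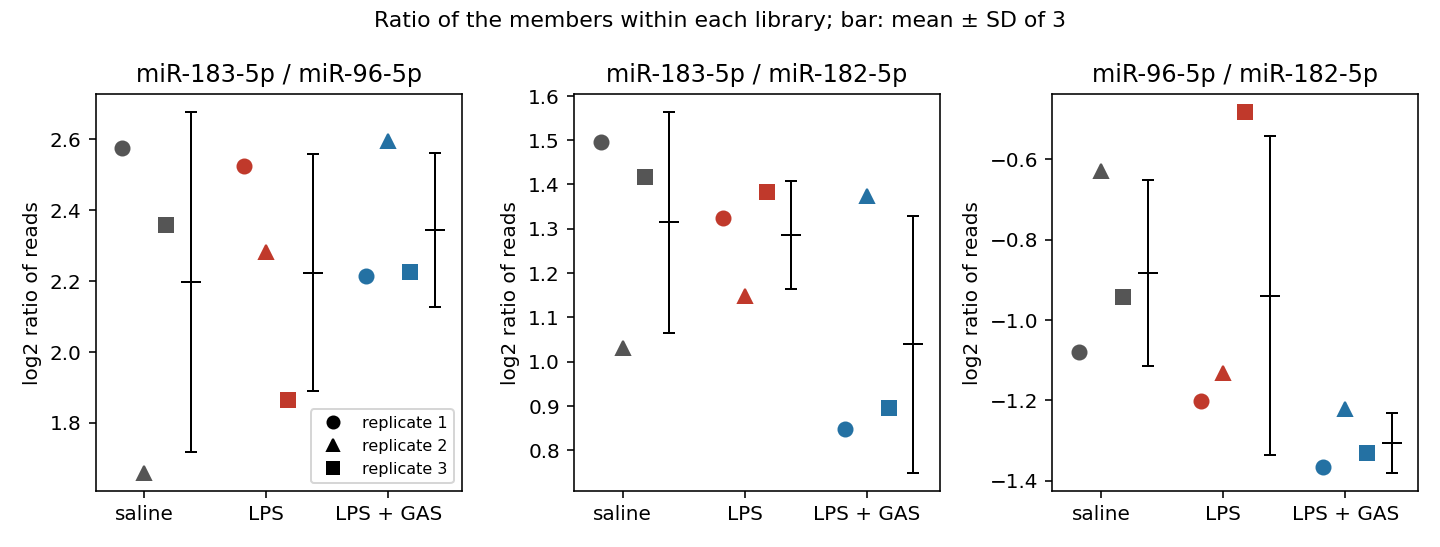
Log2 ratio of the reads of each pair of members in each library, by group, with each point 1 library, its shape the replicate number, and the bar the mean ± SD of the group. For miR-96-5p over miR-182-5p the 3 LPS + GAS libraries lie below the 6 others, replicate 2 by less than counting error. The other pairs overlap between all groups.

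Across the 9 libraries the members rose and fell together. On log2(CPM + 1), Pearson's r was 0.949 for miR-183-5p and miR-182-5p (exact permutation p = 0.000185, adjusted 0.000554), and Spearman's rho was 0.883 (exact p = 0.00308, adjusted 0.00923). For miR-96-5p and miR-182-5p r was 0.925 (exact p = 0.00122, adjusted 0.00122) and rho 0.833 (exact p = 0.00827, adjusted 0.0124). For miR-183-5p and miR-96-5p r was 0.918 (exact p = 0.000733, adjusted 0.0011) and rho 0.783 (exact p = 0.0172, adjusted 0.0172). The adjustment is over the 3 pairs. Without the 2 libraries farthest from the median of the first measure, r was 0.851, 0.895 and 0.901 in the order given (exact permutation p of 0.0125, 0.0101 and 0.00913, each adjusted to 0.0125). Spearman's rho was then 0.750, 0.786 and 0.679 (exact p of 0.0663, 0.0480 and 0.110, adjusted to 0.0994, 0.0994 and 0.110), so the rank correlations were no longer past the threshold after adjustment. The replicate 2 libraries stood apart, however, and within the other 6 r was 0.671 for miR-183-5p and miR-182-5p, 0.647 for miR-96-5p and miR-182-5p and 0.798 for miR-183-5p and miR-96-5p, with exact permutation p of 0.132, 0.175 and 0.0694. Spearman's rho in these 6 was 0.60, 0.657 and 0.486. The relation was therefore not past the threshold within these 6 libraries, and the pooled values rest on the 3 replicate 2 libraries.

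The miRNAs most like the members were ranked by Pearson's r with the mean log2(CPM + 1) of the members, over 9 libraries and the other 625 tested miRNAs. The 10 at the top held 6 of the 7 listed rows of the miR-200 family, miRNAs known from epithelia and olfactory neurons that repress the ZEB factors. MiR-200c-3p came first with r = 0.956, followed by miR-200a-5p (0.907), miR-141-3p (0.873), miR-200a-3p (0.873) and miR-429-3p (0.851). MiR-383-5p (0.850), miR-301b-3p (0.832), miR-200b-3p (0.804), miR-486a-3p (0.804) and miR-139-5p (0.804) completed the 10. The points share the libraries and their normalization, and the values are a description with no test. Some rows had few reads in a library: 10 to 44 for miR-200a-5p, 16 to 69 for miR-141-3p, 4 to 49 for miR-200b-5p and 10 to 25 for miR-301b-3p. The miR-200 rows come from clusters on chromosomes 4 and 6, with both arms of miR-200a and miR-200b among them. They are therefore not 7 separate agreements. All 7 miR-200 rows had r of 0.746 or more (median 0.873), while the median of all 625 was -0.076 and 19 of them (3.04%) were at or above 0.746.

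The level of miR-200c-3p in replicates 1, 2 and 3 was 22.2, 26.7 and 13.3 CPM for saline, 12.2, 47.8 and 18.3 for LPS, and 21.8, 42.6 and 10.7 for LPS + GAS. As with the members, replicate 2 was the highest in each group. MiR-429-3p, the family's most abundant row, had 247, 340.5 and 130.0 CPM in saline, 184, 257 and 168 in LPS and 161, 445 and 105 in LPS + GAS. Replicate 2 was the highest library of its group in all 3 groups for 33 of 628 miRNAs (5.25%), which included the 3 members and all 7 miR-200 rows. A narrower set of 16 miRNAs (2.55%) had all 3 replicate 2 libraries above all 6 others, and it included the 3 members and 5 miR-200 rows.

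Within replicates 1 and 3 the likeness was uneven. The pair encoded on chromosome 6, miR-200c-3p (chr6:124718324-124718346) and miR-141-3p (chr6:124717917-124717938), kept r of 0.905 and 0.889 over these 6 libraries. The rows encoded on chromosome 4 had r of 0.178 to 0.498, and of the others among the 10, miR-301b-3p had 0.775, miR-486a-3p 0.466, miR-139-5p 0.242 and miR-383-5p 0.103. The median over all 625 was -0.015. How many of the 625 reached r this high over 6 libraries is not given here, so these values do not set the chromosome 6 pair apart. The chromosome 6 pair lies far from the miR-183 cluster on the same chromosome. Of the 7 tested rows within 2 Mb of the cluster, miR-129-5p had the highest r over the 9 libraries (0.414, with 0.940 in the 6), and the rows of miR-335 and miR-29 had r of -0.559 to 0.249.

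The summed level of the 7 miR-200 rows, taken as markers of epithelium and olfactory neurons, was 206 to 535 CPM in saline, 261 to 443 in LPS and 168 to 700.5 in LPS + GAS. No row was at 0 in any library, and the sum had r of 0.879 with the members over 9 libraries and 0.533 over 6. Whether tissue with such cells had a part in the members' levels was not tested. None of the 7 rows was called in any comparison, and their median log2 fold change was -0.11 between LPS and saline (-0.045 over all 628 miRNAs), -0.063 between LPS + GAS and LPS (0.0030) and -0.024 between LPS + GAS and saline (-0.028). The sums of the other 9 lists had r with the members from -0.508, for choroid plexus and ependyma, to 0.141, for the Hox clusters. Choroid plexus and ependyma, a tissue next to the hippocampus, varied from 9534 to 58629 CPM, with replicate 2 the highest in 0 of 3 groups. The lists of leukocytes and microglia and of oligodendrocytes had r of -0.293 and -0.088 over 9 libraries, but 0.756 and 0.839 over replicates 1 and 3. The rest of the 9 lists had r over these 6 libraries from -0.717, for pituitary and hypothalamus, to 0.534, for vessels. Values this far from 0 in both directions do not set a list apart. No miRNA of any list was called in any comparison.

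**Figure D5:**
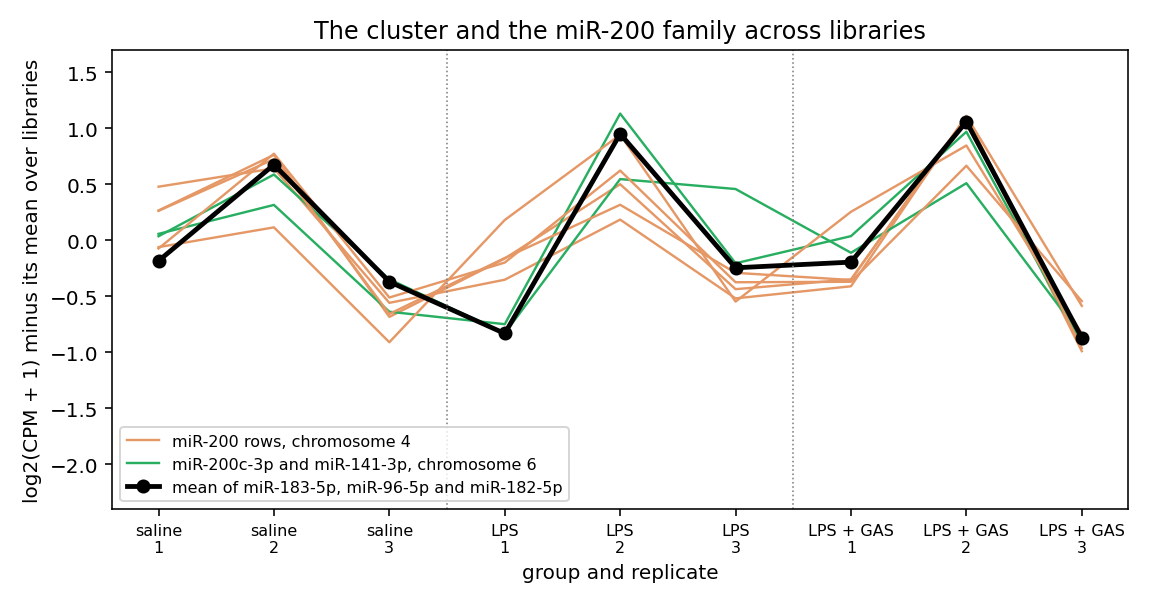
Mean of the 3 members (black) and the 7 miR-200 rows (chromosome 4 orange, chromosome 6 green) in each of the 9 libraries, as log2(CPM + 1) less its mean over libraries, with lines that only join the points of 1 profile. The replicate 2 library of each group is the high point of that group for the members' mean and for the 7 rows.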

How the data were processed

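Small RNA of the hippocampus was sequenced on a BGISEQ-500 in 9 libraries, 3 in each group. The authors deposited raw read counts of 1448 mature miRNAs for each library, without normalization. They also deposited a second whole number, named exp, of unstated origin, here only an alternative. For the members it was 98.6 to 100% of the reads, for all miRNAs together 39.9 to 44.6%. The deposited group averages and the authors' DESeq2 comparisons (fold changes, p-values and q-values) were not used. For the aligner and the miRBase release, nothing was given in the sources used here. Per-library columns that matched no sample numbered 0.

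Counts were analysed with edgeR 4.0.16 in R 4.3.3. The 628 miRNAs with 10 or more reads in 3 or more libraries were scaled by TMM and fitted over all 9 libraries (glmQLFit, glmQLFTest), with p-values adjusted by Benjamini-Hochberg over the 628. Calls needed an adjusted p no higher than 0.05 and a log2 change of 1 or more in either direction. Alternatives were DESeq2 1.42.0, limma 3.58.1 (voom), other scalings and filters, robust fitting, only the groups compared, a replicate block and libraries left out. The fits were tested on simulated data. Exact permutation tests were two-sided, over 20 splits for groups and over all pairings for correlations (scipy 1.17.1 served as a check). Sequences and windows are RefSeq's on GRCm38.p6. At these totals 10 reads are about 1 CPM.

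Libraries with the same number shared their deviations from the group means in LPS + GAS vs saline (r of 0.296, 0.329 and 0.370 over 628 miRNAs), but not in LPS vs saline (0.317, 0.209 and -0.284) or LPS + GAS vs LPS (-0.109, 0.047 and -0.274). Between LPS + GAS and saline, libraries with different numbers had r of -0.424 to 0.043. The deviations of the 3 libraries of a group sum to 0, so these values are not independent of those for equal numbers. Elsewhere different numbers also gave high values: 0.496 for LPS + GAS replicate 3 with LPS replicate 1, and 0.348 for LPS replicate 3 with saline replicate 2. Any pairing by number rests on the correlations alone, since no source used here names a shared litter or day.

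The members, the 10 marker lists (60 miRNAs), the rule for the 10 most alike miRNAs and the neighbours within 2 Mb were chosen with earlier results of these data known. MiR-1271-5p and the motifs were chosen from sequences or after values were seen.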

Additional observations from a re-analysis of the deposited data

How the results depend on the processing

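With 3 libraries in each group, a member's fold change has a standard error near 0.6 on the log2 scale. Counting errors at these depths were at most 0.16. No alternative called a member. The lowest adjusted p of a member was 0.897, and the sign of a fold change was not fixed: it reversed in 20 of 81 values with a library left out and in 14 of 99 under other settings. The cause was not tested.

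In LPS vs saline, the sign reversed to -0.087 for miR-183-5p and -0.053 for miR-182-5p by limma-voom, to -0.11 and -0.043 with the replicate block, to -0.34 and -0.24 with replicates 1 and 3 only, and for miR-96-5p to 0.037 with library totals alone and 0.028 with replicates 1 and 3 only. In LPS + GAS vs LPS, miR-183-5p reversed to -0.039 with library totals alone, -0.0076 by limma-voom and -0.14 with replicates 1 and 3 only. In LPS + GAS vs saline it reversed to -0.094 by limma-voom, -0.093 with the replicate block and -0.48 with replicates 1 and 3 only. The block changed no call, and its standard errors were 0.26 to 0.33.

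With each library left out in turn, the ranges in LPS vs saline were -0.57 to 0.37 for miR-183-5p, -0.62 to 0.62 for miR-96-5p and -0.67 to 0.58 for miR-182-5p. In LPS + GAS vs LPS they were -0.80 to 0.84, -0.81 to 0.50 and -0.43 to 1.02, and in LPS + GAS vs saline -0.72 to 0.66, -0.87 to 0.51 and -0.33 to 0.77.

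Libraries were left out of the ratios as an alternative chosen after the data had been seen. MiR-183-5p over miR-96-5p ranged from -0.24 to 0.22, -0.059 to 0.27 and -0.12 to 0.34 in the 3 comparisons in that order. MiR-183-5p over miR-182-5p went from -0.17 to 0.062 between LPS and saline, and miR-96-5p over miR-182-5p from -0.28 to 0.076. With replicates 1 and 3 only, the signs that reversed were those of miR-183-5p over miR-96-5p in LPS vs saline (-0.27) and LPS + GAS vs saline (-0.25), and of miR-96-5p over miR-182-5p in LPS vs saline (0.17). MiR-183-5p over miR-182-5p ranged from -0.41 to -0.15 in LPS + GAS vs LPS and from -0.44 to -0.18 in LPS + GAS vs saline. Pearson's r fell short of the threshold with replicates 1 and 3 (0.798, 0.671 and 0.647), and kept it in 27 values with a library left out and 21 under other settings. Spearman's rho was less stable. After adjustment it also missed the threshold without the 2 libraries farthest from the median for all 3 pairs. Without LPS replicate 1, and likewise without LPS + GAS replicate 3, it missed it for miR-183-5p and miR-96-5p (exact permutation p adjusted to 0.0576) and for miR-96-5p and miR-182-5p (adjusted to 0.0551).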
